A study of Mus musculus with 12 samples.

Results

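The genes described here are 33 early genes of T cell receptor (TCR) signalling, taken by name from the 53656 gene rows of each count table: the Nr4a, Egr and AP-1 transcription factor genes, the NF-kB subunits and inhibitors, and a set of other genes that TCR signals switch on within a short time. Their messenger RNA was counted in 12 libraries of mouse thymocytes, 3 each of dKO ImCD8, control ImCD8, dKO ImCD4 and control ImCD4. All groups carry floxed alleles of Zfp148 and Zfp281, a related pair of zinc finger genes, on both chromosomes. The double knockout (dKO) adds Cre recombinase driven by Cd4 regulatory sequences, which acts in developing T cells, and the controls have no Cre, so an effect of Cre itself cannot be told apart from the loss of the genes. The ImCD8 gate took CD8+ CD4- thymocytes that were CD44 low, TCR beta positive and CD69 positive. The ImCD4 gate took CD4+ CD8- thymocytes that were CD44 low, negative for H2-Kb and CD69 positive. Every sorted cell therefore carried the CD69 protein, itself a product of 1 of the 33 genes. Nothing in the labels gives the age of the mice or says that libraries came from separate animals, so p-values speak only of the spread among the libraries at hand, some of which may be technical.

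Titles decided the groups. In ImCD8 the genotype label of all 6 libraries states the opposite of the title, and every ImCD8 direction below rests on the titles. Zfp281 had 10.2 to 14.9 CPM (read counts scaled to a common library size) in dKO ImCD8 and 112.5 to 127.9 CPM in control ImCD8, and 16.2 to 21.4 CPM in dKO ImCD4 against 440.9 to 561.7 CPM in control ImCD4. Zfp148 was likewise lower in each library titled dKO. The sorted identities held at the RNA level: Cd4 averaged 7.66 and 3.06 CPM in dKO and control ImCD8, against 1380 and 1115 CPM in dKO and control ImCD4, and Cd8b1 averaged 2041 and 2063 CPM against 116 and 99.4 CPM. Gene counts per library ran from 7315833 to 10943143. The third principal component, with 5.31% of the variance, set apart replicate 3 of every group.

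When a TCR binds its ligand, kinase cascades and calcium act on proteins already present in the cell. Kinases of the Ras and MAPK branch lead to Egr and Fos family transcription, calcium and calcineurin lead to Nr4a transcription, and protein kinase C with its adaptor complex frees NF-kB dimers from their inhibitors. The products then feed back: NF-kB induces its own inhibitors, and the ZFP36 proteins bind AU-rich elements and hasten the decay of early messages. In the thymus this programme is used during positive and negative selection, and Nr4a1, Egr and Cd69 expression are customary readouts of recent TCR signalling.

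Promoter sequence was available for 25 of the 33 genes as RefSeq windows on GRCm38.p6, from 250 bases before the annotated start to 50 after it. The kappa-B site, the sequence that NF-kB dimers bind, was searched on both strands in all 27025 promoters of that length. It was found in 10 of the 25 early-gene promoters and in 4.32% of all promoters. The 10 were Nr4a1, Fos, Fosb, Fosl2, Nfkb2, Rel, Nfkbia, Nfkbie, Tnfaip3 and Ier3. The windows below are those of the pathway's own components, picked with the directions of these genes in the comparisons that follow known. The matched letters are not the same in all windows, and binding was not tested. Each runs 5′ to 3′ on the gene's strand, with 20 bases on either side of the motif where they lie before the start, and capitals mark the kappa-B letters, which in Nfkb2 and Rel are overlapping matches on both strands.
Nfkb2 (chr19:46304678-46304736, plus strand): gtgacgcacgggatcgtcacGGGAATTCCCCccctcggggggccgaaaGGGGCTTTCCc
Rel (chr11:23771031-23771081, minus strand): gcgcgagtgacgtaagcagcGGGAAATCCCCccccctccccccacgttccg
Nfkbia (chr12:55492648-55492696, minus strand): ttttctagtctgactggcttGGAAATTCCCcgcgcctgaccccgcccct
Nfkbie (chr17:45555574-45555623, plus strand): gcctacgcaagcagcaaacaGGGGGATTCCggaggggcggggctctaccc
Tnfaip3 (chr10:19015411-19015555, minus strand): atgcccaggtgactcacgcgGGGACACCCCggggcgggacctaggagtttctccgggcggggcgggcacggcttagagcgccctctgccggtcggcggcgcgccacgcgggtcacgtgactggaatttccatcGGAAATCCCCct

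The EGR site, searched as GCGNGGGCG, was found in 6 of the 25 promoters, against 5.53% of all promoters. The 6 were Nr4a1, Nr4a2, Fosb, Fosl2, Btg2 and Zfp36. The windows of both Nr4a genes follow, with the EGR letters in capitals, because these genes were on opposite sides between the lineages. That of Nr4a1 is a match to the other strand.
Nr4a1 (chr15:101266766-101266814, plus strand): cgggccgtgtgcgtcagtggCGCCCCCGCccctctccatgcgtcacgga
Nr4a2 (chr2:57124049-57124097, minus strand): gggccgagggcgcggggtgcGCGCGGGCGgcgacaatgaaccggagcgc

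A G-rich box written GGGGNGGGG was found in 9 of the 25 promoters and in 22.2% of all promoters. The 9 were Nr4a1, Nr4a3, Jun, Junb, Rel, Rela, Nfkbia, Nfkbib and Nfkbie. This box can overlap the kappa-B and EGR letters, as it does in Rel and Nr4a1. An AP-1 site written TGANTCA was in 3 promoters (Nfkbie, Tnfaip3 and Zfp36l1) and 7.92% of all. The cAMP response element TGACGTCA was in the Btg2 promoter alone and in 1.85% of all promoters, and the CArG box that serum response factor binds was in the Zfp36 promoter alone and in 1.59% of all. These matches are descriptions of the letters in the windows. No promoter sequence was printed or searched for Egr1, Egr3, Nfkb1, Relb, Cd69, Cd83, Ier2 and Zfp36l2.

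The early genes spanned a wide range of levels per length. On the scale of mean CPM per kb of exon (GENCODE M21), Btg1, a gene of the antiproliferative BTG family, stood at 230.4 in dKO ImCD8, 204.9 in control ImCD8, 218.7 in dKO ImCD4 and 145.4 in control ImCD4. Nfkbia, which encodes the inhibitor IkB-alpha, stood at 190.4, 198.8, 161.3 and 161.1 in the same order of groups. Egr1 and Nr4a1 were also high, at 104.7 and 66.2 in dKO ImCD8, 96.6 and 75.0 in control ImCD8, 212.8 and 129.6 in dKO ImCD4, and 181.2 and 141.7 in control ImCD4. The founding AP-1 genes were far lower: per kb, Fos stood between 3.36 and 5.57 across the 4 groups, Jun between 0.98 and 1.88 and Fosb between 0.09 and 0.22. Junb, by contrast, stood between 55.8 and 58.9 in all groups. Ier3, an early gene linked to survival, had 15 and 7 counts in all over the 3 libraries of dKO ImCD8 and of control ImCD8, and 5 and 1 in dKO ImCD4 and control ImCD4. It fell below the filter on low counts, so 32 of the 33 genes were tested. The median of the mean CPM was 130 over those 32 genes and 25.1 over all 13383 tested genes.

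**Figure D1:**
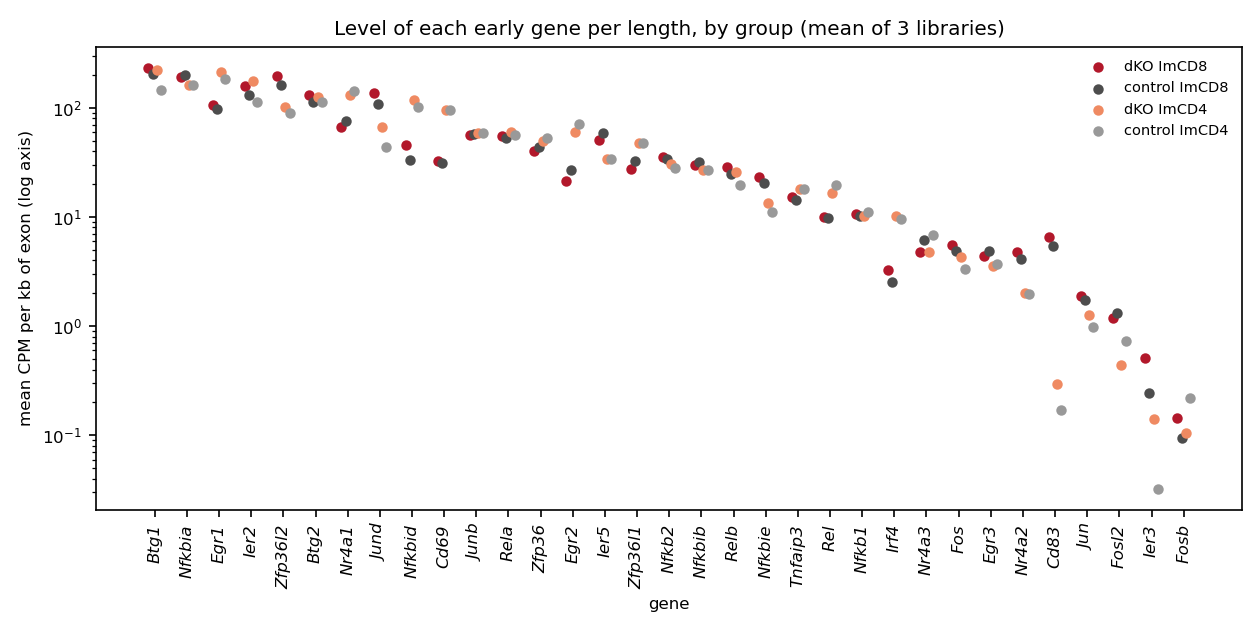
Mean level of each of the 33 genes in CPM per kb of exon (log axis, mean of 3 libraries), with a point for each of the 4 groups and genes ordered by their mean over groups. Levels run from above 200 per kb for Btg1 to below 1 for Fosb and Ier3, and Cd83 is the gene whose ImCD8 and ImCD4 points lie farthest apart; the exon length of Jund is uncertain, because the RefSeq and GENCODE starts of that gene differ.

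Summed over the 33 genes, the level was 5555 to 5703 CPM in dKO ImCD8 and 5238 to 5305 CPM in control ImCD8. In ImCD4 the sum was 6289 to 6829 CPM in dKO and 5723 to 6042 CPM in control libraries. The libraries do not overlap in either population. Without Btg1 and Egr1, the genes with the highest levels summed over the 12 libraries, the sums were 3944 to 3999 and 3688 to 3856 CPM in dKO and control ImCD8, still apart, and 4279 to 4598 and 4241 to 4439 CPM in dKO and control ImCD4, which overlap. In ImCD8 the highest gene after Btg1 was Zfp36l2 rather than Egr1, at means of 680.5 and 574.8 CPM in dKO and control. These sums still hold Zfp36l2, which varied widely between libraries, and its part in the ImCD8 separation was not tested. These bulk libraries cannot tell fewer cells with a transcript from less RNA per cell, here and throughout.

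The first comparison asks whether loss of Zfp148 and Zfp281 alters the early TCR genes in immature CD4 thymocytes. Of the 32 tested genes, 4 were higher in dKO (Ier2, Btg1, Jund and Relb), 1 was lower (Fosl2) and 27 did not pass the test (edgeR quasi-likelihood test, Benjamini-Hochberg adjusted p under 0.05). Over all tested genes 7.26% were higher and 6.16% lower, beside 12.5% and 3.12% of the early genes. The median log2 fold change was 0.02 over the early genes and 0.02 over all genes. The libraries of the groups did not overlap for 7 early genes that were higher and 3 that were lower in dKO, where 18.1% and 15.7% of all genes separated in that way.

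Ier2, an immediate-early gene for a nuclear regulatory protein (chromosome 8, 84661331 to 84662852, minus strand), had 246.4, 278.5 and 267.6 CPM in the dKO ImCD4 libraries and 180.3, 175.7 and 160.2 CPM in the control ImCD4 libraries. Each dKO library was above every control library, and the log2 fold change was 0.62 ± 0.08 (SE, n = 3 each), with edgeR adjusted p = 6.51e-05. Btg1, which restrains proliferation and is abundant in resting lymphocytes (chromosome 10, 96617006 to 96622809, plus strand), had 1027, 1133 and 1301 CPM in dKO ImCD4 and 770.0, 698.3 and 832.4 CPM in control ImCD4. Its groups were also apart, with a log2 fold change of 0.59 ± 0.09 and edgeR adjusted p = 0.000516. The gene tables also hold processed pseudogenes of Btg1, whose reads the counting could share.

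Jund, the constitutively expressed Jun family member of AP-1 (chromosome 8, 70698949 to 70700616, plus strand), had 109.0, 118.7 and 103.0 CPM in dKO ImCD4 and 76.4, 78.7 and 62.4 CPM in control ImCD4. The log2 fold change was 0.61 ± 0.11 with edgeR adjusted p = 0.00182, and the groups did not overlap. Relb, the NF-kB subunit of the non-canonical branch (chromosome 7, 19606217 to 19629438, minus strand), had 99.9, 102.0 and 98.4 CPM in dKO ImCD4 and 73.4, 79.7 and 76.0 CPM in control ImCD4. These groups were apart as well, with a log2 fold change of 0.39 ± 0.10 and edgeR adjusted p = 0.0213. The Relb call was lost in 4 of the 12 fits that leave out a library: without control ImCD4 replicate 1 or 3, or without dKO ImCD4 replicate 1 or 2, where adjusted p was 0.0557 to 0.0843.

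Fosl2, which encodes the Fos-related AP-1 protein Fra-2 (chromosome 5, 32135801 to 32157842, plus strand), was the gene that fell. It had 4.28, 3.64 and 4.81 CPM in dKO ImCD4 and 7.42, 6.85 and 6.78 CPM in control ImCD4, so every dKO library was below every control library. The log2 fold change was -0.73 ± 0.18 with edgeR adjusted p = 0.0128. Adjusted p was 0.0520 without control ImCD4 replicate 1 and 0.0684 without dKO ImCD4 replicate 2. Ier2, Btg1 and Jund passed the test under all 21 alternatives run, with adjusted p of at most 0.000627, 0.00467 and 0.0116.

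**Figure D2:**
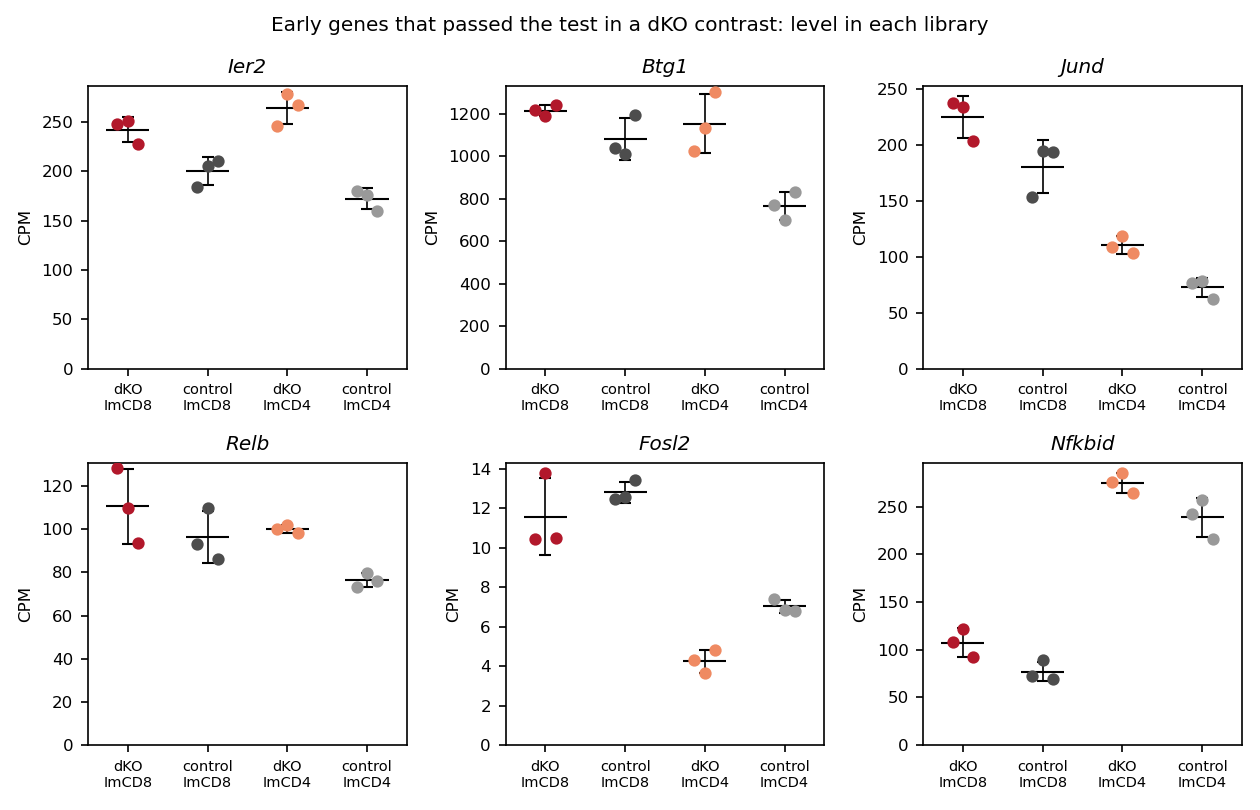
Level in CPM of the 6 early genes that passed the test in a dKO contrast, with 1 point per library, a horizontal line for the mean and bars for the SD (n = 3 per group; linear axes from 0). In the ImCD4 columns the dKO points of Ier2, Btg1, Jund and Relb lie above all control points and those of Fosl2 below them; in the ImCD8 columns those of Ier2, Jund and Nfkbid lie above all control points.

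The early genes most used as readouts of TCR signalling did not pass the main test in ImCD4. Nr4a1, an orphan nuclear receptor gene, had 450.7, 509.7 and 403.8 CPM in dKO ImCD4 and 518.1, 491.5 and 481.7 CPM in control ImCD4, with a log2 fold change of -0.13 and a 95% interval of -0.60 to 0.34. For Egr1 the log2 fold change was 0.23 (interval -0.08 to 0.54), and with replicate 3 of all groups left out it was 0.37 and passed (edgeR adjusted p = 0.00646). It was -0.24 for Egr2 (-0.55 to 0.07) and -0.01 for Cd69 (-0.23 to 0.20). Nfkbia, the classical NF-kB target, was at 0.00 with an interval of -0.15 to 0.15. Intervals for the scarce Fosb (-2.02 to -0.01) and Jun (-0.44 to 1.16) are wide.

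Several genes separated the ImCD4 libraries without passing the test. Rel, the c-Rel subunit gene, had 128.8, 118.5 and 123.6 CPM in dKO ImCD4 and 157.3, 149.9 and 135.6 CPM in control ImCD4, with a log2 fold change of -0.26 ± 0.11 and edgeR adjusted p = 0.143. With a term for replicate 3, with those replicates left out, with no filter, and in a fit of the 6 ImCD4 libraries alone, Rel passed. Fosb (-1.01) was the other gene with separate and lower dKO libraries. Nfkb2 (0.12), Rela (0.09) and Nfkbid (0.20) had separate and higher dKO libraries on the log2 scale, and Nfkbid passed with the replicate 3 term (adjusted p = 0.0481). Nr4a3 (-0.52), whose libraries overlapped, passed with no filter (adjusted p = 0.0293). Nfkbie (0.30) overlapped and passed in 3 alternatives, all of which leave out or model a replicate 3.

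Other measures differed between the ImCD4 groups too. Mitochondrial genes took 0.633% to 0.961% of counts in dKO and 1.07% to 1.31% in control ImCD4. Summed markers of gamma-delta and innate-like T cells, of which all 10 listed in the files were detected, reached 339 to 423 CPM in dKO and 85.2 to 94.8 CPM in control ImCD4. Of these markers 8 passed the filter on low counts. Sox13 took up much of the sum, with 178.1 to 285.2 CPM in dKO and 18.8 to 21.6 CPM in control ImCD4. Summed heat shock and cell handling genes, which tissue dissociation can induce along with early genes, overlapped at 3880 to 6120 CPM in dKO and 3020 to 5560 CPM in control ImCD4, with Hspb1 and Mt2 at 0 in every library. The part of these measures in the early-gene results was not tested.

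In immature CD8 thymocytes 2 of the 32 genes, Nfkbid and Ier2, were higher in dKO, and 0 were lower by edgeR. At an unadjusted p under 0.05, Ier5 was the single lower gene, and DESeq2 and limma-voom likewise called no lower gene, while edgeR with no filter on low counts called Egr2 lower (adjusted p = 0.0165). Over all genes 2.62% were higher and 3.53% lower. The median log2 fold change was 0.08 over the early genes and 0.01 over all genes. Libraries did not overlap for 6 higher and 2 lower early genes, where 10.3% and 11.5% of all genes separated.

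Nfkbid encodes the atypical nuclear inhibitor IkB-NS, which works with c-Rel and other subunits on chromatin (chromosome 7, 30421732 to 30428746, plus strand). It had 108.2, 121.9 and 92.3 CPM in dKO ImCD8 and 72.8, 88.7 and 69.5 CPM in control ImCD8. Every dKO library was above every control library, and the log2 fold change was 0.49 ± 0.11 with edgeR adjusted p = 0.0127. Adjusted p was 0.0706 without control ImCD8 replicate 1, 0.0622 without control ImCD8 replicate 3 and 0.0510 without dKO ImCD8 replicate 2, and 0.0599 in a fit of the 6 ImCD8 libraries alone.

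Ier2 had 247.5, 251.0 and 227.4 CPM in dKO ImCD8 and 183.7, 205.8 and 210.4 CPM in control ImCD8. It was the single early gene that passed the test in both populations. Jund and Nfkbid also had separate and higher dKO libraries in both, and each passed in a single population. The ImCD8 change of Ier2 was 0.28 ± 0.08 on the log2 scale with edgeR adjusted p = 0.0444. That call sat close to the threshold: it was lost in 9 of 21 alternatives, 7 of them leaving out a library, with adjusted p of 0.0542 to 0.198. Those libraries were all 3 control ImCD8 libraries, dKO ImCD8 replicates 1 and 2, and control ImCD4 replicates 1 and 2. Jund (0.32 ± 0.10, edgeR adjusted p = 0.0941) and Irf4 (0.39 ± 0.16, adjusted p = 0.191) had separate and higher dKO ImCD8 libraries and did not pass. Both passed with a term for replicate 3 (adjusted p = 0.0425 for Jund and 0.0454 for Irf4), and Jund also with those replicates left out (0.00882) and with no filter (0.00255). Nfkbie (0.19 ± 0.12) and Tnfaip3 (0.10 ± 0.07) also had separate and higher dKO ImCD8 libraries and did not pass. Egr2 and Zfp36 had separate and lower ones, at -0.33 ± 0.15 and -0.14 ± 0.08.

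**Figure D3:**
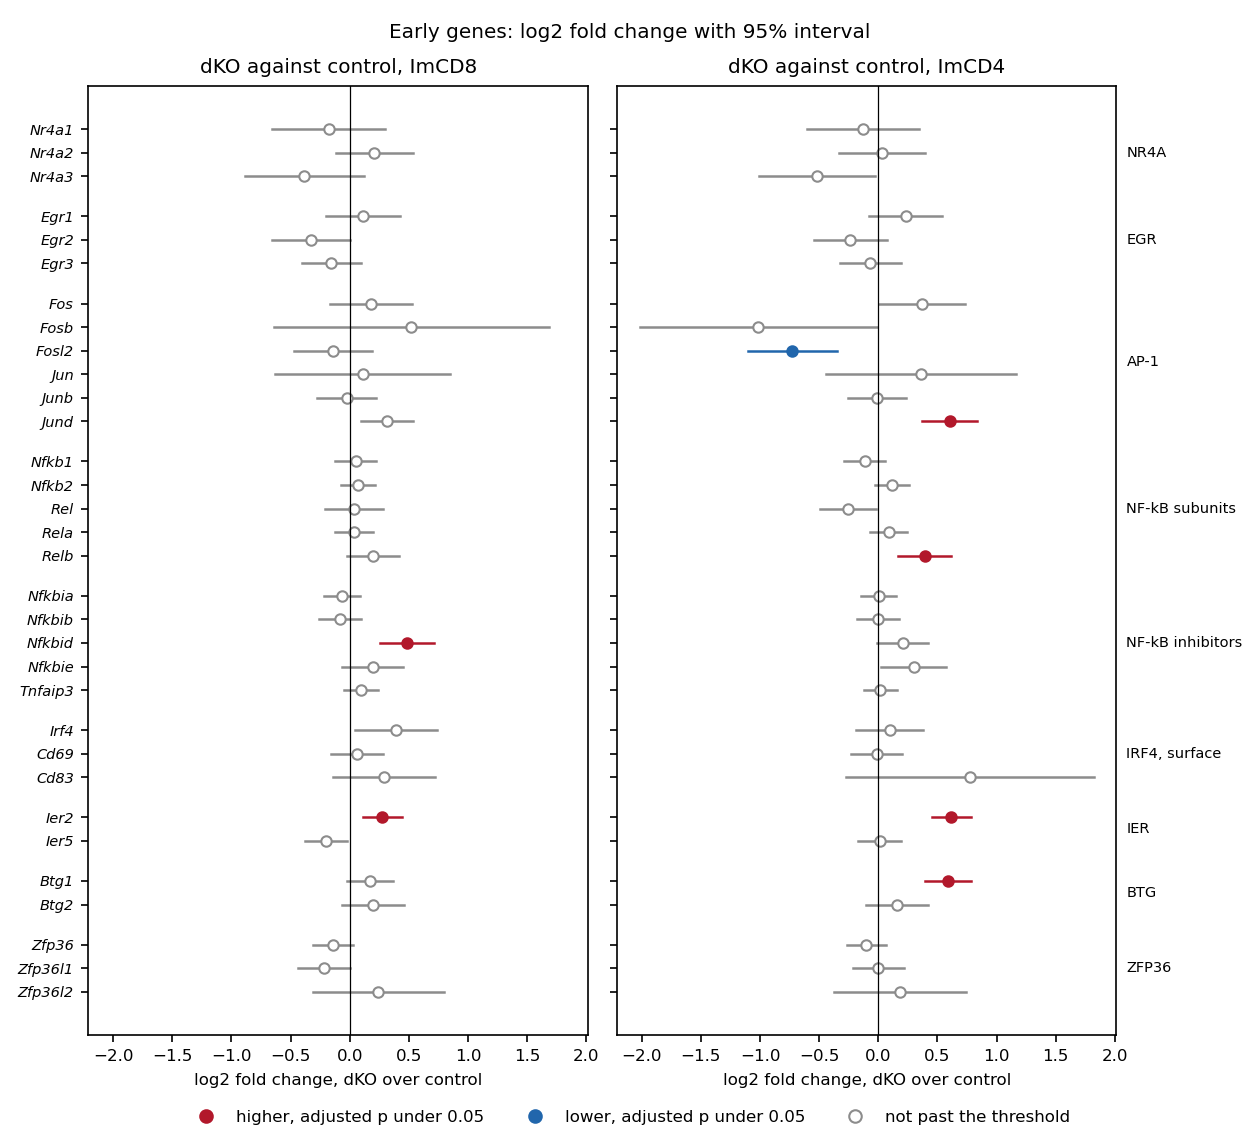
Log2 fold change of dKO over control with its 95% interval for the 32 tested early genes, grouped by family, in ImCD8 (left) and ImCD4 (right); filled symbols passed the edgeR test at an adjusted p under 0.05. Filled symbols are Nfkbid and Ier2 in ImCD8, and Ier2, Btg1, Jund, Relb and Fosl2 in ImCD4, while no gene of the Nr4a, Egr or ZFP36 families has a filled symbol in either population.

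Whether the dKO effect differs between the populations was tested as an interaction, ImCD8 minus ImCD4. By edgeR, DESeq2 and limma-voom, 0 of the 32 early genes passed, where 0.179% of all genes were higher and 0.254% lower. At an unadjusted p under 0.05 there were 3. Btg1 differed by -0.42 ± 0.13 on the log2 scale (edgeR adjusted p = 0.244), with effects of 0.17 in ImCD8 and 0.59 in ImCD4, and it passed with no filter (adjusted p = 0.0238) and with the replicate 3 term (0.0312). Ier2 differed by -0.34 ± 0.11 (adjusted p = 0.257), with effects of 0.28 and 0.62. Fosl2 differed by 0.59 ± 0.24 (adjusted p = 0.407), with effects of -0.14 and -0.73. The change in Fosl2, Jund and Relb in ImCD4, and in Nfkbid in ImCD8, is thus not shown to differ from that in the other population, and for Btg1 the call depends on these settings.

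The comparison of ImCD8 with ImCD4 gave the larger changes. In control thymocytes 15 early genes were higher in ImCD8, 10 were lower and 7 did not pass the test. In dKO thymocytes 10 were higher, 10 lower and 12 did not pass. This is a contrast in which much of the transcriptome moves: 23.1% of all genes were higher and 22.1% lower in control, and 22.1% and 21.6% in dKO. Within the Nr4a, Egr, NF-kB subunit, NF-kB inhibitor and ZFP36 families, relatives lay on opposite sides. The gates select different maturity as well as lineage: summed genes of mature single-positive thymocytes, all 16 listed being detected, reached 17300 to 19700 CPM in dKO ImCD8 and 15900 to 17300 CPM in control ImCD8, against 5200 to 5600 CPM in dKO ImCD4 and 4810 to 5070 CPM in control ImCD4. The listed genes include H2-K1, whose protein H2-Kb was sorted against in ImCD4, so the sums are not independent of the gates. Lineage and maturity cannot be told apart in these groups. The control and dKO contrasts share no library.

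Among the nuclear receptor genes, Nr4a1 was lower and Nr4a2 higher in ImCD8. Nr4a1 had 248.6, 299.3 and 148.8 CPM in dKO ImCD8 and 258.3, 310.0 and 221.6 CPM in control ImCD8, all below the ImCD4 libraries given above. The ImCD8 over ImCD4 log2 fold change was -0.97 ± 0.22 in dKO and -0.92 ± 0.22 in control (edgeR adjusted p = 0.00426 and 0.0055). Nr4a2 had 19.4, 22.7 and 15.5 CPM in dKO ImCD8 against 8.83, 8.33 and 7.38 CPM in dKO ImCD4, and 15.1, 19.0 and 16.1 CPM in control ImCD8 against 8.24, 8.51 and 7.31 CPM in control ImCD4. All ImCD8 libraries were above all ImCD4 libraries, with changes of 1.23 ± 0.16 in dKO and 1.06 ± 0.16 in control (adjusted p = 1.38e-05 and 7.68e-05). Nr4a3 did not pass in either genotype, with control intervals of -0.65 to 0.33. Both Nr4a1 and Nr4a2 hold an EGR site in the windows printed above, and its part in their directions was not tested.

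The EGR genes, zinc finger factors downstream of the MAPK branch, showed the same kind of split. Egr1 changed by -1.02 ± 0.14 in dKO and -0.91 ± 0.14 in control (edgeR adjusted p = 8.34e-05 and 0.000212). Egr2, needed for thymocyte selection and later tolerance (chromosome 10, 67535475 to 67542188, plus strand), had 79.3, 84.7 and 54.9 CPM in dKO ImCD8 against 213.8, 232.0 and 162.6 CPM in dKO ImCD4. In controls Egr2 had 90.5, 86.1 and 98.0 CPM in ImCD8 against 246.6, 231.0 and 240.2 CPM in ImCD4. The populations are far apart in both genotypes, at -1.47 ± 0.15 in dKO and -1.38 ± 0.15 in control (adjusted p = 4.6e-06 and 6.9e-06). Egr3 went the other way at a low level, by 0.32 ± 0.12 in dKO and 0.40 ± 0.12 in control (adjusted p = 0.0422 and 0.0121), and its dKO call held in 7 of 21 alternatives. The dKO call was lost without any 1 of the 6 ImCD4 libraries, and without control ImCD8 replicate 2 or dKO ImCD8 replicate 2 or 3. In control its call was lost without control ImCD8 replicate 1.

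Of the AP-1 genes, Jund and Fosl2 were higher in ImCD8. Jund had 237.4, 233.6 and 203.0 CPM in dKO ImCD8 and 153.4, 194.1 and 194.0 CPM in control ImCD8, all above the ImCD4 values of 62.4 to 118.7 CPM. Its changes were 1.03 ± 0.11 in dKO and 1.32 ± 0.11 in control (edgeR adjusted p = 1.48e-06 and 1.18e-07). Fosl2 rose by 1.45 ± 0.17 in dKO and 0.87 ± 0.16 in control (adjusted p = 4.71e-06 and 0.000435). Fos passed in control (0.55 ± 0.17, adjusted p = 0.0159) and not in dKO (0.36 ± 0.16, adjusted p = 0.0854), and its control call was lost without control ImCD4 replicate 2 or control ImCD8 replicate 3. Junb was at -0.06 and -0.05 with intervals of -0.31 to 0.18 in dKO and -0.30 to 0.20 in control, and Jun and Fosb did not pass in either genotype. In control Jun passed in 3 and Fosb in 4 alternatives, with adjusted p of 0.0196 to 0.0373 and 0.0243 to 0.0483. Without dKO ImCD8 replicate 2 Jun passed in both genotypes and Fosb in control, as Fosb also did without dKO ImCD8 replicate 1.

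NF-kB subunits went different ways. Rel fell, by -0.74 ± 0.11 in dKO and -1.03 ± 0.11 in control (edgeR adjusted p = 8.24e-05 and 3.01e-06), with 74.7, 82.8 and 64.7 CPM in dKO ImCD8 and 74.7, 83.8 and 59.3 CPM in control ImCD8. Nfkb2, which encodes the p100 precursor of the non-canonical branch, rose by 0.22 ± 0.07 in dKO and 0.27 ± 0.07 in control (adjusted p = 0.0136 and 0.00403). Relb, the partner of the processed p100 product, passed in control (0.33 ± 0.11, adjusted p = 0.0165) and not in dKO (0.14 ± 0.10, adjusted p = 0.288). The Relb control call was lost without control ImCD4 replicate 1 or control ImCD8 replicate 2, and the Nfkb2 dKO call without dKO ImCD4 replicate 3 or dKO ImCD8 replicate 2. Nfkb1 and Rela, the subunits of the classical p50 and p65 dimer, did not pass, with control intervals of -0.29 to 0.06 and -0.24 to 0.08. Rela passed in dKO with library size alone (adjusted p = 0.0453).

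The inhibitors also divided. Nfkbid had 276.0, 284.7 and 264.1 CPM in dKO ImCD4 and 242.5, 256.9 and 216.4 CPM in control ImCD4, above all of the ImCD8 libraries listed earlier, and it changed by -1.35 ± 0.11 in dKO and -1.63 ± 0.11 in control (edgeR adjusted p = 6.15e-08 and 8.78e-09). Nfkbie, the gene for IkB-epsilon, rose by 0.79 ± 0.12 in dKO and 0.89 ± 0.13 in control (adjusted p = 0.000103 and 3.81e-05). Nfkbia rose by 0.24 ± 0.07 and 0.30 ± 0.07 (adjusted p = 0.0129 and 0.00265), the dKO call being lost without dKO ImCD4 replicate 1. Tnfaip3, which encodes the ubiquitin-editing enzyme A20, fell by 0.24 and 0.32 on the log2 scale in dKO and control (adjusted p = 0.00757 and 0.000986). Nfkbib passed in control (0.24 ± 0.08, adjusted p = 0.0314) and not in dKO (0.16 ± 0.08, adjusted p = 0.135), and kept its control call in 11 of 21 alternatives. Its call was lost without control ImCD4 replicate 2 or 3, or control ImCD8 replicate 2 or 3. Of the kappa-B promoters printed above, those of Nfkb2, Nfkbia and Nfkbie belong to genes that were higher in ImCD8. Those of Rel and Tnfaip3 belong to genes that were lower. The part of the motif in these directions was not tested.

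**Figure D4:**
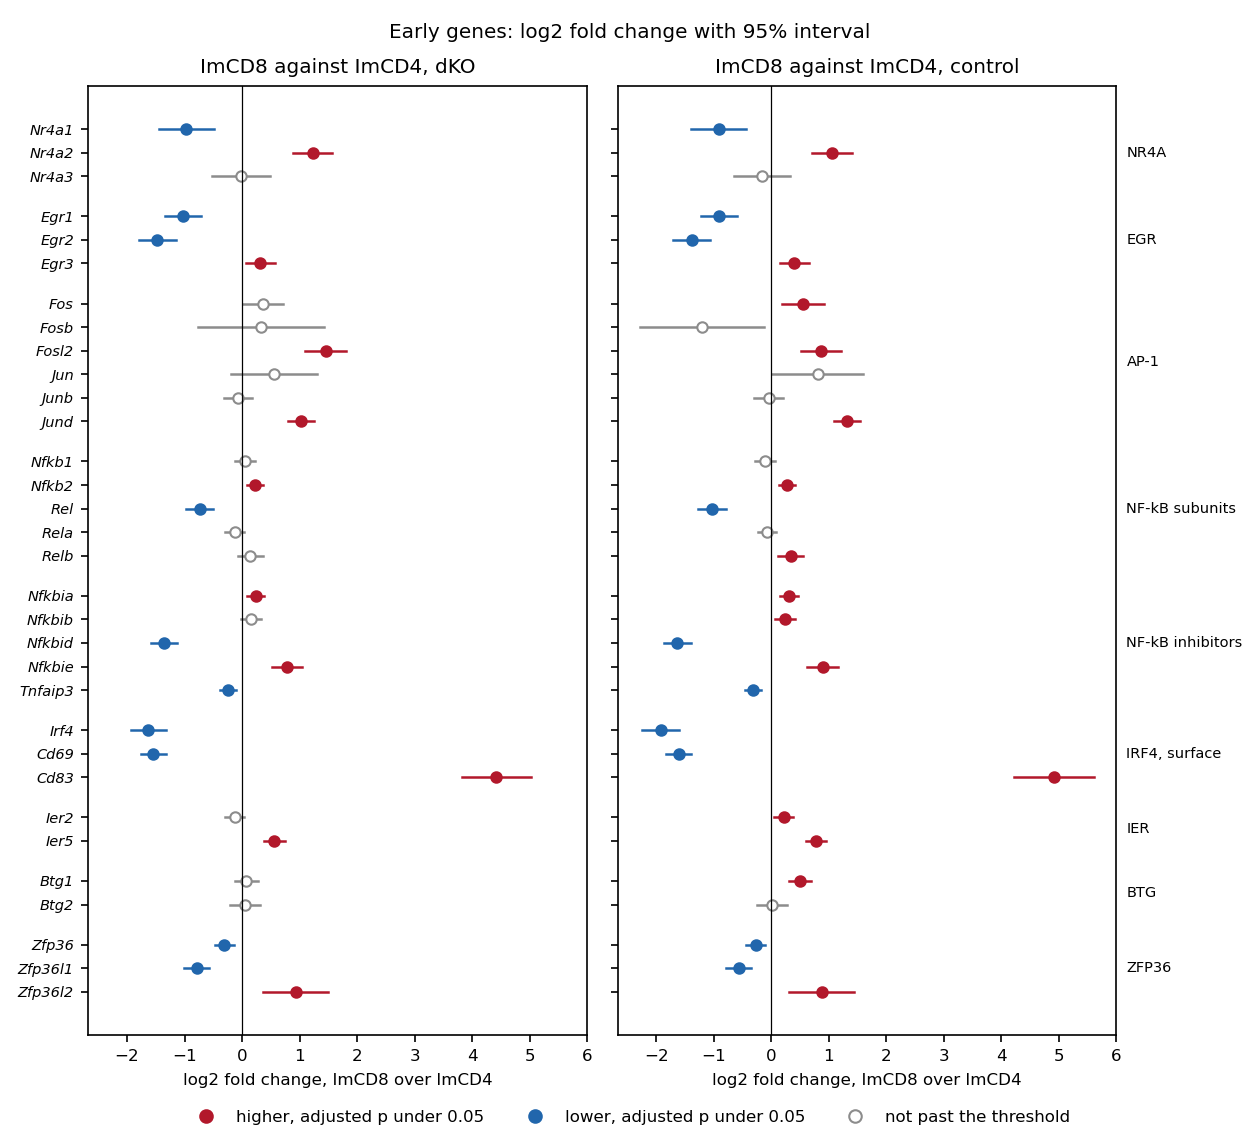
Log2 fold change of ImCD8 over ImCD4 with its 95% interval for the 32 tested early genes, grouped by family, in dKO (left) and control (right); filled symbols passed the edgeR test at an adjusted p under 0.05. Members of 1 family lie on both sides of 0 (Nr4a1 at -0.92 and Nr4a2 at 1.06 in control, Rel at -1.03 and Nfkb2 at 0.27), and Cd83 lies farthest to the right, at 4.42 in dKO and 4.91 in control.

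Irf4 and the surface genes Cd69 and Cd83 were among the 6 largest changes in control, with Nfkbid, Egr2 and Jund. Irf4 encodes a transcription factor whose level follows TCR signal strength. The gene (chromosome 13, 30749226 to 30766976, plus strand) had 14.9, 15.8 and 17.7 CPM in dKO ImCD8 against 46.4, 41.4 and 62.2 CPM in dKO ImCD4. In controls it had 11.99, 12.68 and 12.23 CPM in ImCD8 against 41.0, 46.1 and 53.1 CPM in ImCD4. The changes were -1.63 ± 0.15 in dKO and -1.93 ± 0.15 in control (edgeR adjusted p = 2.39e-07 and 5.33e-08), and no ImCD8 library reached an ImCD4 one.

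Cd69, the early activation antigen that holds cells in the tissue by opposing the S1P receptor (chromosome 6, 129267325 to 129275436, minus strand), had 194.2, 200.1 and 242.8 CPM in dKO ImCD8 against 554.4, 603.6 and 698.2 CPM in dKO ImCD4. In controls Cd69 had 206.9, 191.7 and 213.0 CPM in ImCD8 against 652.5, 555.2 and 663.4 CPM in ImCD4. Both gates required the CD69 protein, and the message was nevertheless lower in every ImCD8 library, by -1.54 ± 0.10 in dKO and -1.61 ± 0.10 in control on the log2 scale (edgeR adjusted p = 1.15e-08 and 6.79e-09). S1pr1, the receptor it opposes and 1 of the mature genes listed, had 216.9 to 399.2 CPM in dKO ImCD8 against 5.93 to 7.14 CPM in dKO ImCD4.

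Cd83, a surface gene known from activated dendritic and B cells and from thymic epithelium (chromosome 13, 43784775 to 43803132, plus strand), went the opposite way. It had 17.40, 12.97 and 20.24 CPM in dKO ImCD8 against 0.89, 1.05 and 0.32 CPM in dKO ImCD4. In controls it had 11.8, 14.4 and 15.2 CPM in ImCD8 against 0.35, 0.55 and 0.42 CPM in ImCD4. ImCD8 was higher by 21.5-fold in dKO and 30.1-fold in control, or 4.42 ± 0.29 and 4.91 ± 0.33 on the log2 scale (edgeR adjusted p = 5.68e-09 and 7.07e-09). Summed B cell markers, all 10 detected, were also higher in ImCD8, at 368 to 501 CPM in dKO and 313 to 406 CPM in control ImCD8, against 64.3 to 91.4 CPM in dKO ImCD4 and 72.1 to 95.6 CPM in control ImCD4. Ighm made up most of that sum, while Ms4a1 and Pax5 had at most 1 count over the libraries of any group. Of 12 myeloid and dendritic markers 10 were detected, with Cd14 and Clec9a at 0; their sum was 168 to 196 and 170 to 172 CPM in dKO and control ImCD8, against 98.5 to 107 and 92.9 to 100 CPM in dKO and control ImCD4, nearly all from Cst3 and Ly75. Of 11 thymic epithelial markers 10 were detected (Cldn3 was at 0), with sums of 135 to 143 and 126 to 133 CPM in dKO and control ImCD8, against 46.8 to 61.2 and 46.6 to 67 CPM in dKO and control ImCD4. Ly75 is on this list too, so the myeloid and epithelial sums are not separate measures. Detected here means at least 1 count over the 12 libraries. Of the 11 epithelial markers 4 passed the filter on low counts, as did 4 of the 10 B cell and 3 of the 12 myeloid and dendritic markers. The part of such cells in the Cd83 result was not tested.

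**Figure D5:**
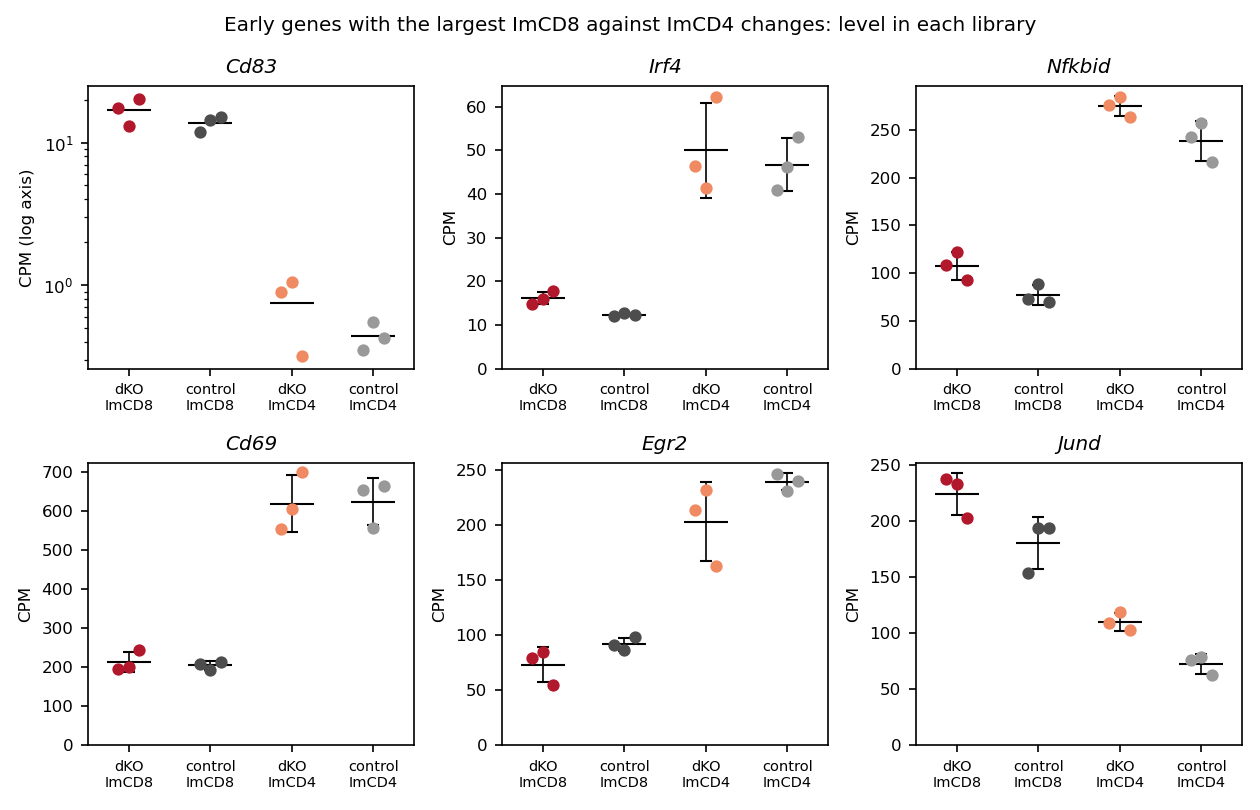
Level in CPM of the 6 early genes with the largest ImCD8 against ImCD4 changes in control, with 1 point per library, a line for the mean and bars for the SD (n = 3 per group; linear axes from 0, except a log axis without SD bars for Cd83). Cd83 and Jund are higher, and Irf4, Nfkbid, Cd69 and Egr2 lower, in all ImCD8 libraries than in any ImCD4 library.

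The remaining early genes were regulators of RNA and of proliferation. Ier5, an immediate-early gene with a role in the heat shock factor response, rose in ImCD8 by 0.56 ± 0.08 in dKO and 0.77 ± 0.08 in control (edgeR adjusted p = 5.4e-05 and 1.87e-06). Btg1 passed in control (0.50 ± 0.09, adjusted p = 0.000402) and not in dKO (0.08 ± 0.09, adjusted p = 0.547), and Ier2 likewise (0.22 ± 0.08 in control, adjusted p = 0.0313; -0.13 ± 0.08 in dKO, adjusted p = 0.200). The control call of Ier2 held in 13 of 21 alternatives and was lost without control ImCD4 replicate 2 or 3, or control ImCD8 replicate 2 or 3. The difference between these lineage effects is the same interaction given above for Btg1 and Ier2, which did not pass. Btg2 was at 0.05 and 0.01, with intervals of -0.21 to 0.31 in dKO and -0.25 to 0.27 in control.

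In the ZFP36 family of mRNA decay factors, Zfp36l1 fell by 0.79 and 0.57 and Zfp36 by 0.31 and 0.27 on the log2 scale in dKO and control ImCD8 against ImCD4 (edgeR adjusted p of 1.7e-05 and 0.000325 for Zfp36l1, 0.00429 and 0.00943 for Zfp36). Zfp36l2, a close relative, rose instead, by 0.93 ± 0.25 in dKO and 0.87 ± 0.25 in control (adjusted p = 0.0128 and 0.0172). Zfp36l2 varied widely between libraries, with 511.9, 619.4 and 910.2 CPM in dKO ImCD8 and 666.9, 462.3 and 595.3 CPM in control ImCD8. Its control call was lost without control ImCD4 replicate 2 or control ImCD8 replicate 1. In all 4 groups, replicate 3 was above the mean log2 level of the other libraries of its group for 4 early genes (Zfp36l2, Fos, Cd69 and Btg1) and below it for 8 (Nr4a1, Nr4a2, Nfkb2, Relb, Nfkbib, Nfkbid, Nfkbie and Btg2). Jun, Junb, Nfkb2, Nfkbib and Zfp36l1 overlap another gene in the annotation, and whether the counting used strand is not stated in these sources. It is therefore not known whether reads from a shared stretch were counted for the gene, for its neighbour or as ambiguous.

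Genes upstream of the early programme were read against the shares over all genes given above. The lists here and below were chosen with earlier results of these data known. A share unlike that of all genes may follow from that choice. In ImCD4, 4.55% of the NF-kB kinases and adaptors were higher and 9.09% lower, 5.26% and 15.8% of the Ras and MAPK genes, and 18.8% and 6.25% of the calcineurin and NFAT genes, beside 7.26% and 6.16% of all genes. In ImCD8 the shares of these lists were 0% and 4.55%, 0% and 15.8%, and 0% and 0%, beside 2.62% and 3.53% of all genes. Among the NF-kB kinases and adaptors, Tab2 (-0.52 ± 0.10, edgeR adjusted p = 0.00371), an adaptor of the TAK1 kinase, fell and Traf5 (0.81 ± 0.24, adjusted p = 0.0341) rose in ImCD4. Of 14 feedback genes and deubiquitinases, Cyld, which removes ubiquitin chains that NF-kB signalling needs, fell in both populations, by 0.33 and 0.30 on the log2 scale in ImCD8 and ImCD4, and Tnip1 rose in ImCD4 by 0.25 ± 0.07 (adjusted p = 0.0263). Of this list 7.14% were higher and 7.14% lower in ImCD4, and 0% and 7.14% in ImCD8.

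In the Ras and MAPK list, the kinase genes Map2k7 and Rps6ka1 fell in both populations. Map2k7, the kinase above JNK, changed by -0.52 ± 0.09 in ImCD8 and -0.54 ± 0.08 in ImCD4 (edgeR adjusted p = 0.0014 and 0.00051). Map2k1, the kinase directly above ERK, rose in ImCD4 by 0.71 ± 0.11 (adjusted p = 0.000442). Of 16 tested calcineurin and NFAT genes, the phosphatase subunits Ppp3ca, Ppp3cc and Ppp3r1 rose in ImCD4 by 0.56, 0.67 and 0.39 on the log2 scale and Nfat5 fell by 0.42. Of 14 tested AP-1 partners, Atf1, a CREB family factor, fell by 0.63 and 0.74 in ImCD8 and ImCD4 (adjusted p = 0.000133 and 1.6e-05), and Mafg rose in ImCD8 by 0.53. Of these partners 0% were higher and 7.14% lower in ImCD4, and 7.14% and 7.14% in ImCD8. Among 13 tested serum response and ETS partners, Elk3 fell in ImCD8 by 0.35 and Crtc3 in ImCD4 by 0.53. In each population 0% of that list were higher and 7.69% lower.

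Among 49 other tested genes that TCR signals induce, 5 rose and 4 fell in ImCD8 (10.2% and 8.16%, beside 2.62% and 3.53% of all genes). In ImCD4, 7 rose and 11 fell (14.3% and 22.4%, beside 7.26% and 6.16% of all genes). As the list was chosen with earlier results of these data known, these shares are not a test of enrichment. The median log2 fold changes of this list were -0.01 and 0.01, and those of all genes 0.01 and 0.02. Those named here are the 8 with the smallest adjusted p in each population. In both populations Icos, a costimulatory receptor, and the immediate-early gene Csrnp1 fell and Bbc3, the apoptosis gene also called Puma, rose. Bbc3 had 31.5 to 35.4 CPM in dKO ImCD8 against 20.4 to 25.3 CPM in control ImCD8, and 65.3 to 78.1 CPM in dKO ImCD4 against 43.3 to 48.6 CPM in control ImCD4. The MAPK phosphatases did not move as 1 group. Dusp1 fell in both (-0.60 ± 0.12 in ImCD8 and -0.61 ± 0.10 in ImCD4, edgeR adjusted p = 0.00522 and 0.000951), Dusp2 rose in both (0.49 ± 0.13 and 1.03 ± 0.13, adjusted p = 0.0338 and 0.000108), and Dusp5 fell in ImCD4 (-0.64 ± 0.10, adjusted p = 0.000349).

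Dusp10 rose in ImCD8 (0.34 ± 0.08) and fell in ImCD4 (-0.44 ± 0.08), and its difference passed the interaction test at 0.78 ± 0.12 with edgeR adjusted p = 0.00449. Of this list 4 genes passed that test, all higher (8.16%, beside 0.179% of all genes), with Ccr7 and Cd40lg among them. This share too may follow from the choice of the list. Id3, an inhibitor of E proteins induced through Egr factors, rose in ImCD8 by 0.48 ± 0.09 (adjusted p = 0.00543). Cd40lg, a helper-lineage gene, rose in ImCD8 by 1.01 ± 0.19 (adjusted p = 0.00421), with 6.03 to 8.51 CPM in the dKO libraries and 3.14 to 5.07 CPM in the control libraries. In ImCD4 the largest falls of the group were in Ccr7, the chemokine receptor of mature thymocytes, with 269.1 to 316.7 CPM in dKO and 544.5 to 731.3 CPM in control (-1.08 ± 0.11, adjusted p = 1.08e-05), and in Sik1, a salt-inducible kinase (-0.85 ± 0.10, adjusted p = 5.51e-05).

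Lists of handling and maturity genes were set beside these. Of 15 tested heat shock and handling genes, 20% were higher and 13.3% lower in ImCD4, beside 7.26% and 6.16% of all genes. In ImCD8 the shares were 6.67% and 6.67%, beside 2.62% and 3.53% of all genes. Among these genes, Dusp1 fell in both populations, as above. In ImCD4 the chaperone genes Dnajb1 and Dnajb4 rose, by 0.36 and 0.32, and Socs3, at few counts per library, fell (log2 fold change -1.99 ± 0.46, adjusted p = 0.0089). Of 11 tested genes of double-positive thymocytes, Dntt, the template-free polymerase of receptor rearrangement, rose by 1.26 ± 0.15 in ImCD8 and 0.79 ± 0.15 in ImCD4 (adjusted p = 0.000204 and 0.00383). In each population 9.09% of those genes were higher and 0% lower. The 16 genes of mature single-positive cells gave 3 rises in ImCD8 (Slfn1, B2m and Slfn2; 18.8%, beside 2.62% of all genes). In ImCD4 they gave 7 rises and 3 falls (43.8% and 18.8%, beside 7.26% and 6.16% of all genes). The shares of this list may also follow from its choice, made with earlier results of these data known. Those that rose in ImCD4 included Klf2, a regulator of thymic exit (0.92 ± 0.14, adjusted p = 0.000612), and Slfn1 (0.87 ± 0.11, adjusted p = 9.95e-05), and those that fell were Ccr7, Itgb7 and Il7r. The part of maturity in the early-gene results was not tested.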

How the data were processed

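Gene counts of 12 libraries were used as the authors deposited them: raw whole-number counts per gene symbol, made with cutadapt 1.18, STAR 2.6.1 and HTSeq on mm10, per the submitters' processing notes. RNA came from a column kit and libraries from a low-input cDNA kit, per the labels' protocols; no source used here states the annotation or the strand option of HTSeq. The 5 summary rows stayed out of all totals: reads in no gene were 10.5% to 16.4%, ambiguous reads 5.37% to 5.82% and reads with several alignments 3.87% to 5.39%. Libraries of 1 group differed by more than counting noise (chi-square over its degrees of freedom 3.84 to 17.1), and each counts as its own sample. Replicate numbers follow record order, and no label pairs libraries across groups; replicate 3 nevertheless stood apart in every group, and a term for it was an alternative.

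The analysis ran in edgeR 4.0.16 under R 4.3.3: filterByExpr (minimum count 10, minimum total 15), TMM scaling (factors 0.946 to 1.036), and 1 robust quasi-likelihood fit of 4 group means with 8 residual degrees of freedom. Tests were two-sided and adjusted by Benjamini-Hochberg over 13383 genes. The scripts were tested on simulated data. There, 50% of 1.5-fold and 80% of 2-fold changes placed in dKO ImCD4 passed against control ImCD4. A gene that did not pass may thus still have changed by such an amount. Levels are CPM on TMM-scaled library sizes. Alternatives were RLE factors, library size alone, DESeq2 1.42.0, limma 3.58.1 (voom, weighting samples by quality), keeping all genes with any count or only those over 5 CPM in at least 3 libraries, the 6 libraries compared, each library left out, replicate 3 left out or modelled. Gene positions and exon lengths are GENCODE M21, promoters RefSeq GRCm38.p6, 1 per gene at the most upstream start.

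All 33 genes are reported, in full where they passed a dKO contrast or were among the 6 largest control lineage changes; from pathway lists, genes that passed in a dKO contrast, at most 8 per list by adjusted p. The genes and lists were chosen with earlier results of these data known. Some genes that this rule takes are not reported here.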

Additional observations from a re-analysis of the deposited data

How the results depend on the processing

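Under 21 alternatives (20 for the difference), no early gene that passed reversed its direction. Counts of early genes passing moved by more than 1.5 times in the dKO contrasts and their difference, and not in the lineage contrasts. In ImCD4, 5 passed; leaving out 1 library gave 3 to 6, the 3 coming without control ImCD4 replicate 1 and without dKO ImCD4 replicate 2, and both leaving out replicate 3 of all groups and a term for it gave 8. In ImCD8, 2 passed; leaving out 1 library gave 0 to 2, library size alone gave 1, the 6 libraries compared 0, no filter 4 and the replicate 3 term 4. For the difference 0 passed, and no filter and the replicate 3 term each gave 1, which was Btg1. The cause was not tested. Over all alternatives the lineage counts were 21 to 27 in control and 18 to 20 in dKO. No block over all replicate numbers was fitted, since the numbers come from record order; the replicate 3 term is the blocked fit, for the libraries that PC3 sets apart. Depth limits Fosb, Ier3 and, in ImCD4, Cd83, each at few counts per library. Intervals rest on a spread within groups of 3 that was estimated over all 12 libraries, not over the libraries compared alone.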
